A study of Drosophila melanogaster with 8 samples.

Results

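Caspases are the proteases that carry out apoptosis, and in flies they are held back by inhibitor of apoptosis proteins until death signals release them. The initiator caspase Dronc is activated on a complex built by the adaptor Dark, and it then cleaves effector caspases such as Dcp-1 and Drice. Diap1 restrains Dronc and the effectors, Debcl and Buffy belong to the Bcl-2 family, and the transcription factor p53 drives death and repair genes after DNA damage. Transcripts of 9 such genes were sought, Dronc, Dark, Dcp-1, Drice, Damm, Diap1, Debcl, Buffy and p53, by symbol among the probe sets that the platform annotation ties to a single gene. Of these, 7 genes were measured, with 9 probe sets in all, out of 11010 genes tested; Drice and Diap1 had no such probe set and were not analysed here.

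RNA was taken from the established Drosophila melanogaster line S2, whose cells resemble macrophages, in 4 groups of 2 samples. Cells of every group were first given double-stranded RNA (dsRNA) by lipid transfection, scrambled in 2 groups and directed at DmSTING in the other two. After 72 h they were transfected with the cyclic dinucleotide c-di-GMP or mock transfected with Cellfectin alone, and RNA was extracted 24 h later. The study asked what DmSTING contributes to the response to c-di-GMP. Groups follow the sample titles and source names; the genotype field goes against them in 4 samples, those of the scrambled c-di-GMP group and the DmSTING mock group. All 8 samples come from 1 cell line, and nothing states that replicates were separate cultures, so the p-values reflect only how far these libraries differ, possibly for technical reasons.

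Values are on a log2 scale centred, probe set by probe set, on the median of the 8 arrays, so 0 is the middle of the samples and not absence. Levels cannot be compared between genes, and markers of the cell type cannot be checked for presence. The Sting transcript, the target of the dsRNA, had log2 values of 0.46 to 0.83 in the 4 scrambled samples and -0.84 to -0.46 in the 4 DmSTING dsRNA samples. In the 4 samples whose genotype field differs, Sting followed the titles, at 0.57 and 0.46 in scrambled c-di-GMP and -0.48 and -0.46 in DmSTING mock. With DmSTING dsRNA it was lower by 1.3 on the log2 scale on average over both treatments (SE 0.05, n = 2 per group, limma adjusted p = 0.000252). Sting also fell with c-di-GMP, by 0.31 with scrambled dsRNA (SE 0.07, limma adjusted p = 0.0366) and by 0.33 with DmSTING dsRNA (SE 0.07, limma adjusted p = 0.0376). In bulk RNA, fewer cells with a transcript and less of it per cell cannot be told apart.

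Dcp-1 fell after c-di-GMP with either dsRNA, and p53 rose with DmSTING dsRNA but did not pass the test with scrambled dsRNA. On average over the dsRNAs, 3 of the 7 genes passed the test, with an adjusted p under 0.05 over all genes: Dcp-1 and Debcl fell and p53 rose. Among all genes 20.9% passed in that comparison, 7.65% higher and 13.3% lower. The median log2 change of the 7 genes was -0.1, beside -0.03 over all genes. Dronc, Dark, Damm and Buffy did not pass.

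**Figure D1:**
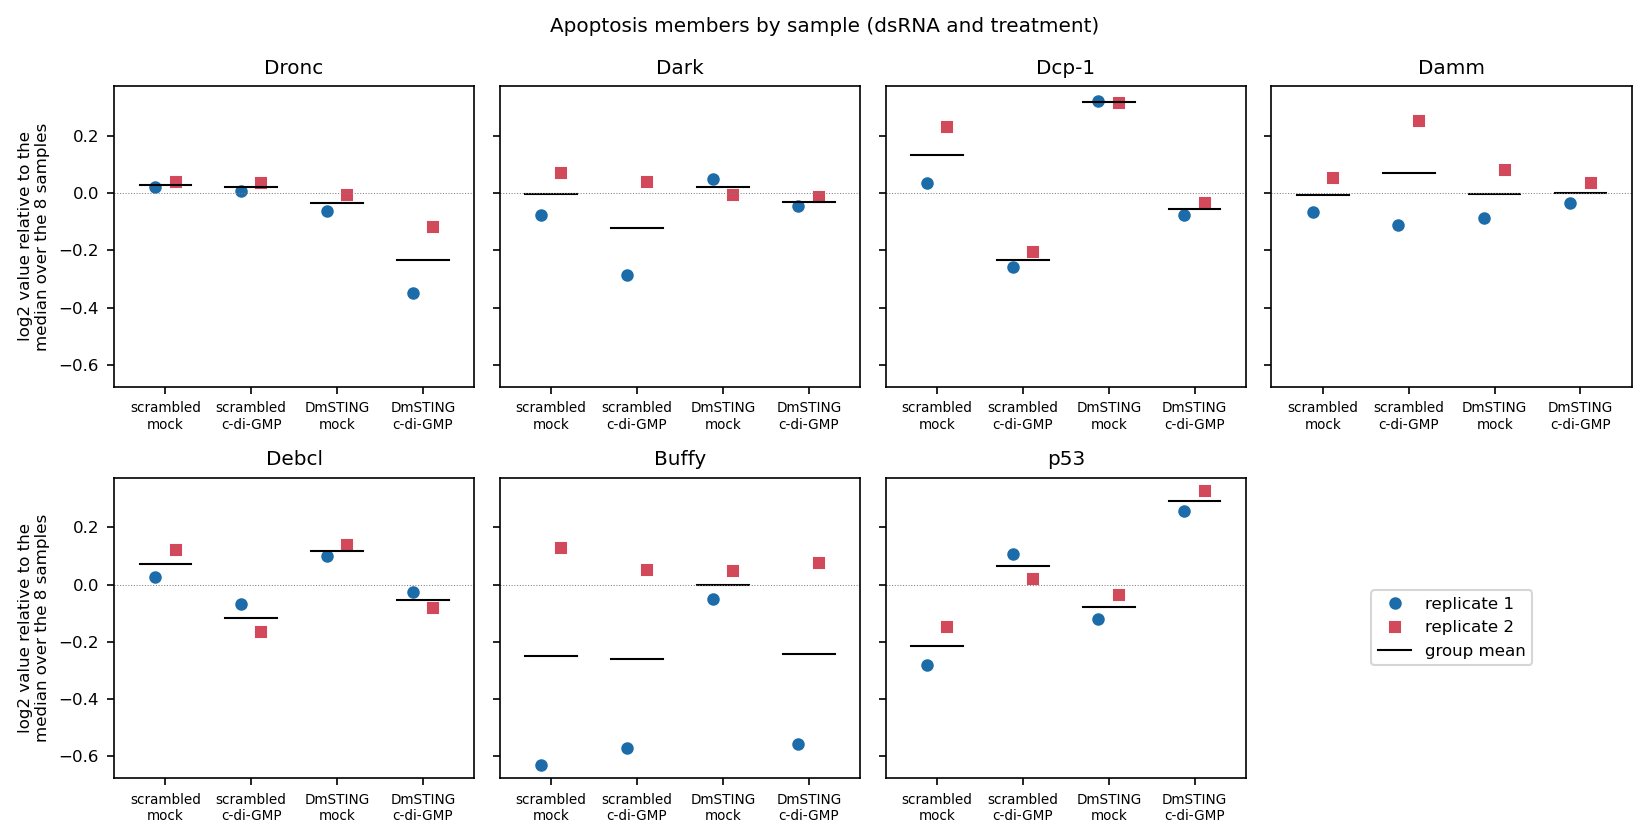
Each panel is 1 gene, with the log2 value relative to its median over the 8 samples on the vertical axis and the 4 groups on the horizontal axis; circles are replicate 1, squares replicate 2 and lines the mean of the 2. Both c-di-GMP groups lie below both mock groups for Dcp-1 and Debcl and above them for p53, and replicate 1 of Buffy lies below -0.5 in 3 groups.

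Dcp-1 encodes an effector caspase, one of the proteases that cleave the proteins of the dying cell. Its log2 values with scrambled dsRNA were 0.04 and 0.23 under mock and -0.26 and -0.21 under c-di-GMP. With DmSTING dsRNA they were 0.32 and 0.31 under mock and -0.08 and -0.04 under c-di-GMP. All 4 c-di-GMP samples were below all 4 mock samples, and within each treatment the DmSTING dsRNA samples were the higher pair. How many of all genes separate by treatment in this way was not counted. The change with c-di-GMP was -0.36 with scrambled dsRNA (SE 0.08, n = 2 per group, limma adjusted p = 0.0305) and -0.37 with DmSTING dsRNA (SE 0.08, n = 2 per group, limma adjusted p = 0.0366). Dcp-1 was the only one of the 7 genes called with scrambled dsRNA, where 12.1% of all genes were called, 4.14% higher and 7.95% lower. With DmSTING dsRNA, Dcp-1 and p53 were called beside 7.45% of all genes, 3.27% higher and 4.18% lower. With the arms averaged, Dcp-1 fell by 0.37 (SE 0.06, adjusted p = 0.00478), which is 22.6% lower if the logarithm is to base 2.

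The call of Dcp-1 with scrambled dsRNA was lost after quantile normalization (-0.3, adjusted p = 0.0667), when only those 4 libraries were fitted (adjusted p = 0.129) and without scrambled mock replicate 2 (-0.27, adjusted p = 0.129). Leaving out replicate 1 or 2 of the scrambled c-di-GMP group also lost it (adjusted p = 0.083 and 0.0512), as did leaving out either DmSTING mock replicate, which alters only the estimate of spread (adjusted p = 0.074). With DmSTING dsRNA the call was lost without the 25% of genes of smallest range and without any of that arm's 4 libraries. Leaving out one of those libraries leaves 1 sample in a group and lowered the calls of that arm over all genes too. Such losses are therefore not particular to Dcp-1 or to the genes below. The call on the average of both arms held under each of the 15 alternatives run, with changes from -0.42 to -0.32 and adjusted p from 0.00394 to 0.03.

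The transcription factor gene p53 went the other way. Its log2 values with scrambled dsRNA were -0.28 and -0.15 under mock and 0.11 and 0.02 under c-di-GMP. With DmSTING dsRNA they were -0.12 and -0.04 under mock and 0.26 and 0.33 under c-di-GMP. Averaged over its 2 probe sets, the c-di-GMP samples were above the mock samples in both arms without overlap. The DmSTING c-di-GMP samples were the highest of the 8. The share of all genes that separate so was not counted. The change was 0.37 with DmSTING dsRNA (SE 0.08, n = 2 per group, limma adjusted p = 0.0348). It was 0.28 with scrambled dsRNA, short of the threshold (SE 0.08, adjusted p = 0.0622). On average p53 rose by 0.32 (SE 0.06, adjusted p = 0.00682), or 25.2% if the base is 2.

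The 2 probe sets of p53 differed in size of change. Probe set 1625134_at had log2 values of -0.3 and -0.24 in scrambled mock, 0.13 in both scrambled c-di-GMP samples, -0.17 and -0.13 in DmSTING mock, and 0.42 and 0.4 in DmSTING c-di-GMP. Fitted alone, it rose by 0.4 with scrambled dsRNA (adjusted p = 0.0144) and by 0.56 with DmSTING dsRNA (adjusted p = 0.00688). Probe set 1630028_at changed by 0.16 (adjusted p = 0.403) and 0.18 (adjusted p = 0.437) in the same comparisons and was not called. With scrambled dsRNA its log2 values overlapped, at -0.26 and -0.06 under mock and 0.08 and -0.09 under c-di-GMP. With DmSTING dsRNA they were -0.07 and 0.06 under mock and 0.09 and 0.25 under c-di-GMP. The parts of the p53 transcripts that each probe set matches were not examined here. Averaged over both probe sets, the call with DmSTING dsRNA was lost without any of that arm's 4 libraries (adjusted p from 0.0918 to 0.25). The call averaged over both dsRNAs was lost only for probe set 1630028_at alone (0.17, adjusted p = 0.185) among 16 alternatives.

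**Figure D2:**
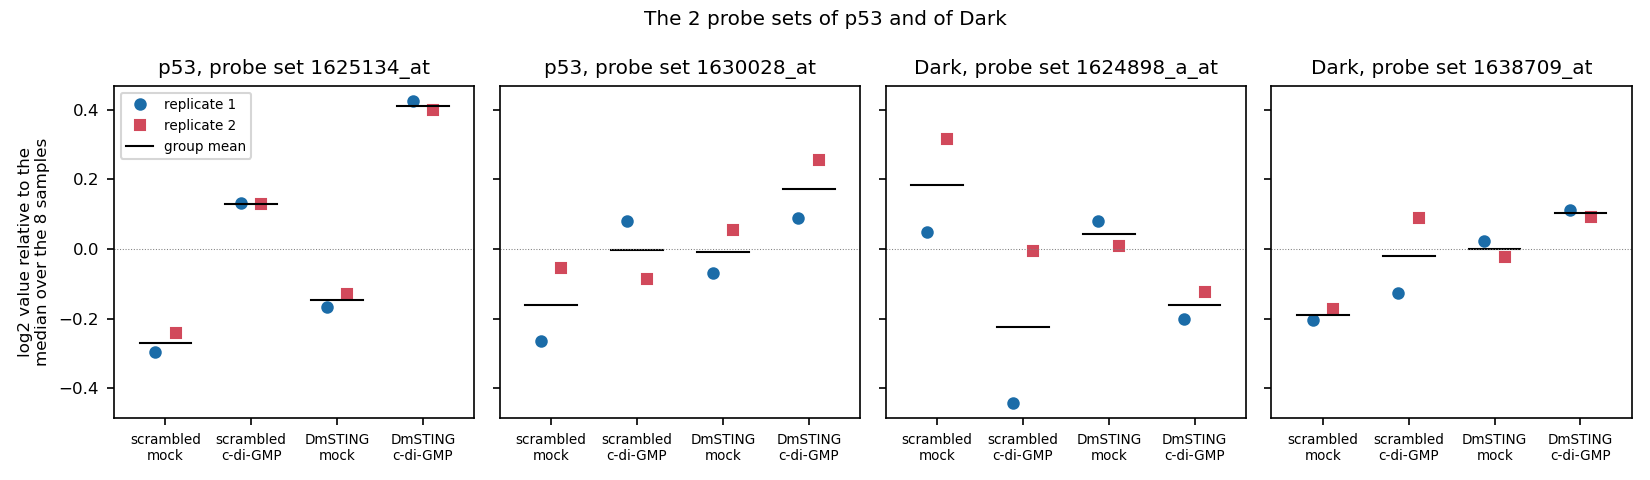
Centred log2 values (vertical axis) for the 2 probe sets of p53 and the 2 of Dark, by group (horizontal axis); circles are replicate 1, squares replicate 2 and lines the mean of the 2. Probe set 1625134_at of p53 separates c-di-GMP from mock in both arms, and the changes of the 2 probe sets of Dark have opposite signs, neither past the threshold.

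Debcl, a Bcl-2 family gene that promotes cell death in flies, showed a smaller decrease. Its log2 values with scrambled dsRNA were 0.03 and 0.12 under mock and -0.07 and -0.17 under c-di-GMP. With DmSTING dsRNA they were 0.1 and 0.14 under mock and -0.03 and -0.08 under c-di-GMP. The groups did not overlap in either arm, though the share of all genes that separate so was not counted. The change was -0.19 with scrambled dsRNA (adjusted p = 0.138) and -0.17 with DmSTING dsRNA (adjusted p = 0.22), not past the threshold in either. With the arms averaged, Debcl fell by 0.18 (SE 0.05, n = 2 per group, limma adjusted p = 0.0447), 11.8% lower if the base is 2. That call was lost under 12 of 15 alternatives (adjusted p up to 0.162), among them the replicate block (adjusted p = 0.0584), quantile normalization and leaving out any library but scrambled c-di-GMP replicate 1. Over the 8 samples Debcl and Dcp-1 had a Pearson correlation of 0.92, the highest among pairs of the 7 genes, and Debcl and Buffy had one of 0.19. Among all genes, 539 had a correlation over 0.9 with Dcp-1. Such values only describe samples that share the same arrays and treatments.

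Dronc, the initiator caspase, stayed near its median in 6 samples, with log2 values from -0.06 to 0.04 in both scrambled groups and in DmSTING mock. The DmSTING c-di-GMP samples were the lowest, at -0.35 and -0.12. The change with c-di-GMP was -0.01 with scrambled dsRNA (95% interval -0.21 to 0.2, adjusted p = 0.963). With DmSTING dsRNA it was -0.2 (95% interval -0.4 to 0.0052, adjusted p = 0.243), and it was -0.08 without replicate 1 of the DmSTING c-di-GMP group and -0.31 without replicate 2 (adjusted p = 0.66 and 0.124). The difference between those responses was -0.19 (95% interval -0.48 to 0.1, adjusted p = 0.997).

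Dark, which encodes the adaptor that assembles the Dronc-activating complex, had log2 values of -0.08 and 0.07 in scrambled mock and -0.29 and 0.04 in scrambled c-di-GMP. With DmSTING dsRNA it had 0.05 and -0.01 under mock and -0.04 and -0.02 under c-di-GMP. These are means of 2 probe sets, and apart from scrambled c-di-GMP replicate 1 they lay within 0.1 of the median. Singly, 1624898_a_at ran from -0.44 in scrambled c-di-GMP replicate 1 to 0.32 in scrambled mock replicate 2. Probe set 1638709_at ran from -0.2 in scrambled mock replicate 1 to 0.11 in DmSTING c-di-GMP replicate 1. The average change with c-di-GMP was -0.09 (95% interval -0.27 to 0.1, adjusted p = 0.507), but this averages probe sets whose changes had opposite signs. Probe set 1624898_a_at alone changed by -0.41 with scrambled dsRNA (adjusted p = 0.134) and 1638709_at by 0.17 (adjusted p = 0.258). Neither passed, so no direction is given for Dark.

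Damm, another caspase gene, overlapped between all groups. Its log2 values ran from -0.11 to 0.25, with both of these extremes in the scrambled c-di-GMP group. The average change with c-di-GMP was 0.04 (95% interval -0.17 to 0.25, limma adjusted p = 0.798).

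Buffy, the other Bcl-2 family gene, varied between replicates rather than between treatments. Replicate 1 had log2 values of -0.63 in scrambled mock, -0.57 in scrambled c-di-GMP and -0.56 for DmSTING with c-di-GMP, and replicate 2 had 0.13, 0.05 and 0.08 in the same groups. In DmSTING mock the replicates were close, at -0.05 and 0.05. The pooled SD within groups was 0.41, beside a median of 0.1 over all genes, and 0.409% of genes had a larger one. The average change with c-di-GMP was -0.12 with a 95% interval from -0.64 to 0.4 (SE 0.22, adjusted p = 0.744). With the replicate block the SE was 0.11 and the change was still not called (adjusted p = 0.474).

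**Figure D3:**
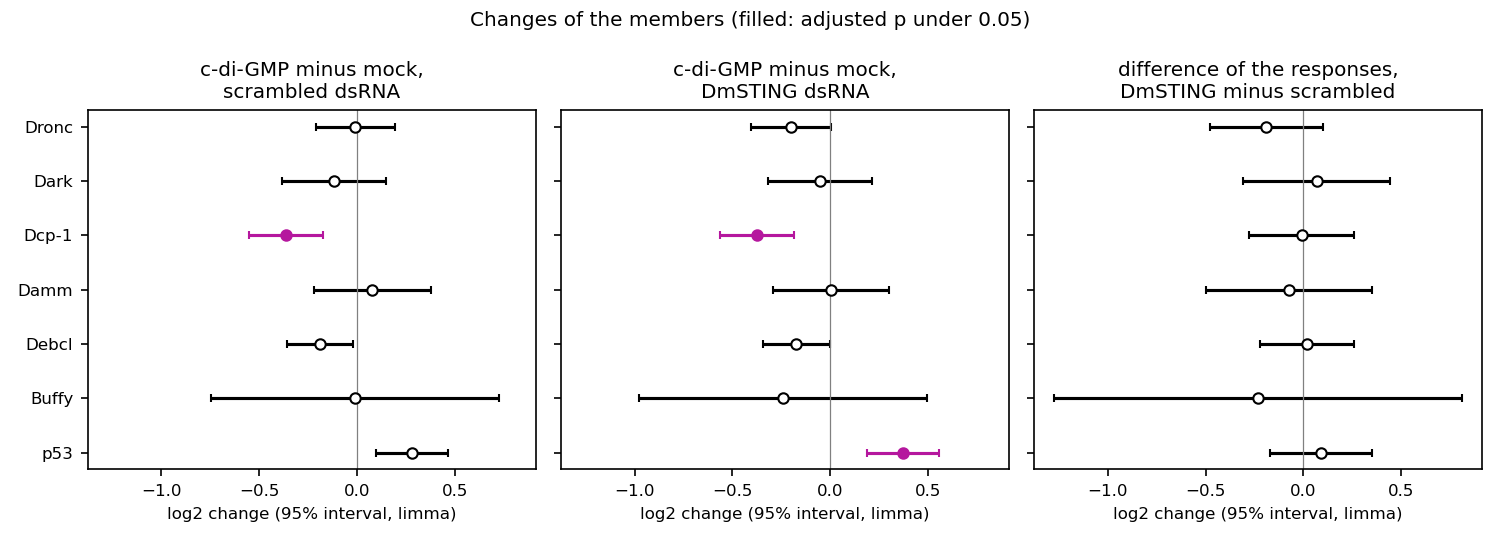
Points give the log2 change of each gene (horizontal axis) with its 95% interval from limma, for c-di-GMP minus mock with scrambled dsRNA, the same with DmSTING dsRNA, and the difference of those responses. Filled points have an adjusted p under 0.05: Dcp-1 in both arms and p53 with DmSTING dsRNA. All 7 intervals of the difference include 0.

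The comparison that the design turns on, whether DmSTING dsRNA altered the response to c-di-GMP, gave 0 calls among the 7 genes by limma, beside 0% of all genes. At an unadjusted p under 0.05 there were 0 of the 7 genes and 4.9% of all genes. For Dcp-1 the response differed between arms by -0.01 (95% interval -0.28 to 0.26), and for p53 by 0.09 (95% interval -0.17 to 0.35). Debcl differed by 0.02 (95% interval -0.22 to 0.26) and Buffy by -0.23 (95% interval -1.27 to 0.81). These intervals are wide beside the responses and do not show that the arms act alike. That of p53 reaches 0.35, beside responses of 0.28 with scrambled dsRNA and 0.37 with DmSTING dsRNA. Both limits for Debcl are larger in size than its responses of -0.19 and -0.17. For Dcp-1 they are smaller in size than its responses of -0.36 and -0.37.

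DmSTING dsRNA against scrambled dsRNA called none of the 7 genes by limma, under mock, under c-di-GMP or averaged over both treatments. In each of these comparisons 0.00908% of all genes passed, which is Sting alone. Averaged over both treatments, Dcp-1 was at 0.18 (SE 0.06, unadjusted p = 0.0152, adjusted p = 0.356), p53 at 0.18 (SE 0.06, unadjusted p = 0.0126, adjusted p = 0.354) and Dronc at -0.16 (SE 0.06, unadjusted p = 0.0341, adjusted p = 0.376). The unadjusted p was under 0.05 for those 3 of the 7 genes and for 12.5% of all genes. Under c-di-GMP alone it was under 0.05 for Dronc at -0.26 and p53 at 0.23 (adjusted p = 0.319 and 0.32), beside 13.7% of all genes. Under mock it was under 0.05 for 0 of the 7 and for 3.22% of all genes.

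Other genes of the pathway were taken from a list of 46, of which 31 were measured. On average 3 of the 31 rose and 7 fell with c-di-GMP, with a median log2 change of -0.09 beside -0.03 over all genes, of which 7.65% rose and 13.3% fell. With scrambled dsRNA 2 rose and 4 fell, beside 4.14% and 7.95% of all genes. With DmSTING dsRNA 1 rose and 4 fell, beside 3.27% and 4.18%. The same shares are the background of each group within the list. None was called by limma for DmSTING dsRNA against scrambled dsRNA or for the difference of responses, where few had an unadjusted p under 0.05. These were 0 of the 31 under mock (3.22% of all genes), 4 under c-di-GMP (13.7%), 3 on average (12.5%) and 2 in the difference (4.9%). Of the antagonists that free caspases from their inhibitors only HtrA2 was measured, 1 of 6, at an average of -0.24 (adjusted p = 0.15).

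Genes of other inhibitors and of ubiquitin regulators held the largest decrease among the 31. Of 6 measured, 2 fell in each arm, dnr1 and Diap2. The gene dnr1 encodes a RING-finger protein that restrains the caspases Dredd and Dronc. It had log2 values from 0.6 to 0.86 in the 4 mock samples and from -0.77 to -0.6 in the 4 c-di-GMP samples. It fell by 1.37 with scrambled dsRNA (SE 0.09, n = 2 per group, limma adjusted p = 0.00219). With DmSTING dsRNA it fell by 1.48 (SE 0.09, adjusted p = 0.00211), a call lost without either DmSTING mock replicate (adjusted p up to 0.0536). Diap2, an inhibitor of apoptosis protein that also acts in the IMD immune pathway, fell by 0.38 with scrambled dsRNA (SE 0.09, adjusted p = 0.0359) and fell by 0.59 with DmSTING dsRNA (SE 0.09, adjusted p = 0.0121). Leaving out single libraries lost both calls (adjusted p up to 0.162 and 0.118), in the scrambled arm for any library but scrambled c-di-GMP replicate 2 and in the other for each of its own 4. Its average decrease of 0.48 held under all 15 alternatives (adjusted p from 0.00109 to 0.017). For Diap2 the call with scrambled dsRNA was also lost when only the scrambled dsRNA libraries were fitted. The difference between arms was not called (adjusted p = 0.988).

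Among other caspases and adaptors, 3 were measured and Strica, a caspase, fell on average by 0.22 (SE 0.05, limma adjusted p = 0.0152), though in neither arm alone. Without either DmSTING mock replicate that call was lost (adjusted p up to 0.0818). Dredd, the caspase of the IMD pathway, and Fadd, its adaptor, were not called. None of 3 DNA fragmentation factors passed, and Drep1 was nearest at an average of -0.2 (adjusted p = 0.0767).

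Of 9 measured genes of p53 and DNA damage signalling, 2 rose and 1 fell on average, beside 7.65% and 13.3% of all genes. The gene lok, which encodes the checkpoint kinase Chk2 that acts on p53, fell by 0.39 on average (SE 0.05, limma adjusted p = 0.0025). It fell by 0.51 with scrambled dsRNA (adjusted p = 0.0081, and 0.0583 without scrambled mock replicate 2) and was at -0.27 with DmSTING dsRNA (adjusted p = 0.0691). The call of lok with scrambled dsRNA was also lost when only the scrambled dsRNA libraries were fitted. The log2 values of lok were 0.09 to 0.21 in the mock samples and -0.34 to -0.09 in the c-di-GMP samples. Irbp, a subunit of the Ku complex of DNA end joining, rose by 0.28 (SE 0.06, adjusted p = 0.0117), and mre11, a nuclease of double-strand break repair, by 0.23 (SE 0.05, adjusted p = 0.0168). The call of Irbp was lost without either DmSTING mock replicate (adjusted p up to 0.0591). That of mre11 was lost without scrambled mock replicate 1, either DmSTING mock replicate or DmSTING c-di-GMP replicate 1 (adjusted p up to 0.0873).

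Mitochondrial factors moved in both directions in each arm, with 1 of 5 higher and 1 lower. AIF, a mitochondrial flavoprotein, rose by 0.29 with scrambled dsRNA (SE 0.07, limma adjusted p = 0.0317) and by 0.37 with DmSTING dsRNA (SE 0.07, adjusted p = 0.0198). Pink1, a kinase that marks damaged mitochondria for removal, fell by 0.49 (SE 0.09, adjusted p = 0.015) and fell by 0.45 (SE 0.09, adjusted p = 0.0239) in the same arms. With DmSTING dsRNA both calls were lost without any of that arm's 4 libraries (adjusted p up to 0.175 for AIF and 0.179 for Pink1). With scrambled dsRNA, Pink1 lost its call without scrambled mock replicate 2 (adjusted p = 0.0819), and AIF without any mock library of either arm or without replicate 1 of the scrambled c-di-GMP group (adjusted p up to 0.126). Both calls with scrambled dsRNA were also lost when only the libraries of that arm were fitted, and that of AIF without the 25% of genes of smallest range. The average changes of 0.33 for AIF and -0.47 for Pink1 were called under all 15 alternatives run for each. Of 4 measured genes of dead cell uptake, 2 fell on average, both receptors. The gene drpr fell by 0.23 (SE 0.05, adjusted p = 0.016) and crq fell by 0.34 (SE 0.07, adjusted p = 0.015). In the single arms drpr was called with DmSTING dsRNA, at -0.35 (adjusted p = 0.026, and up to 0.219 without 1 of that arm's libraries), and crq in neither. The average call of drpr was lost without scrambled mock replicate 1 or either DmSTING mock replicate (adjusted p up to 0.0821), and that of crq without scrambled mock replicate 2 or DmSTING mock replicate 1 (adjusted p up to 0.0669).

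**Figure D4:**
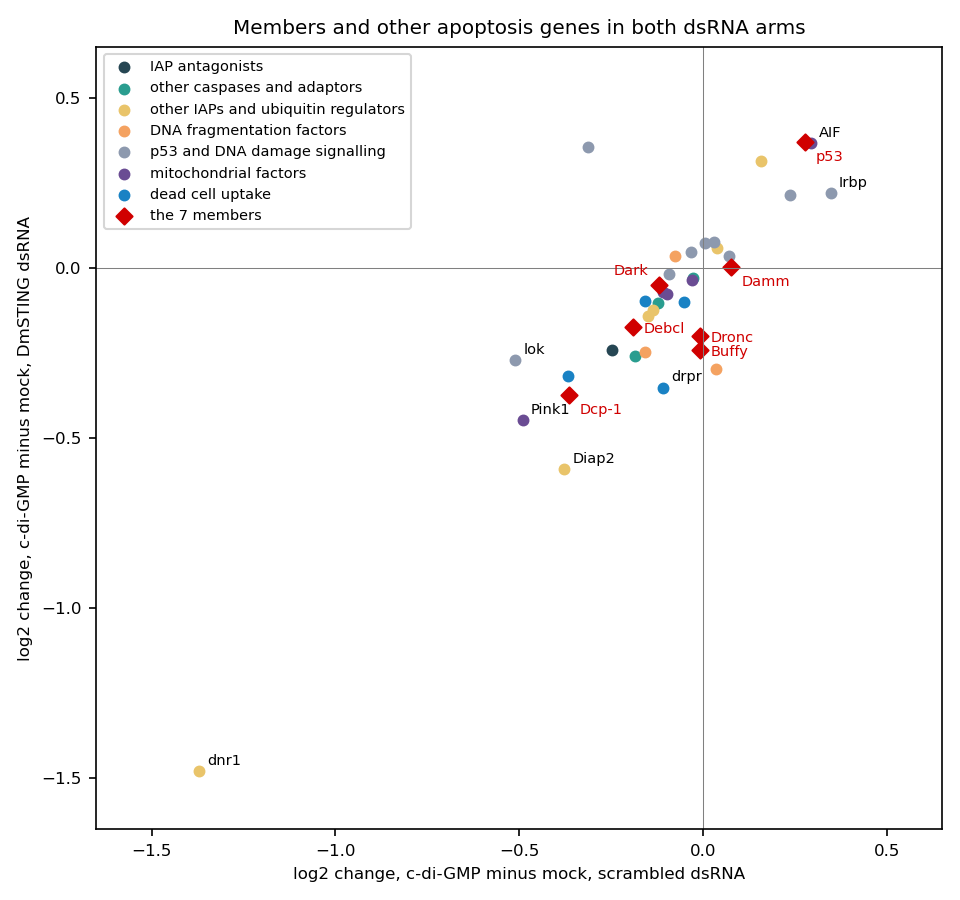
Each point is 1 gene, with its log2 change for c-di-GMP minus mock with scrambled dsRNA on the horizontal axis and with DmSTING dsRNA on the vertical axis; diamonds are the 7 genes and circles the 31 others by group, labelled where called in either arm. The point farthest from 0 is dnr1, at -1.37 and -1.48, and Dcp-1 and p53 lie near the diagonal on opposite sides of 0.

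Some markers of macrophage-like fly blood cells (plasmatocytes) moved with the treatment too. Of 8 measured, NimC1, vkg, Col4a1 and crq, 4 in all, fell on average with c-di-GMP and 0 rose, beside 13.3% and 7.65% of all genes. The others were not called and went both ways on average, Hml at 0.06, eater at 0.05, Pxn at -0.06 and He at -0.1. With scrambled dsRNA 3 fell, NimC1, vkg and Col4a1, and with DmSTING dsRNA 0 were called by limma. In that arm NimC1, crq and He had an unadjusted p under 0.05 (0.00513, 0.0153 and 0.0499). In the scrambled arm vkg changed by -0.74 and Col4a1 by -0.61, and in the DmSTING arm they changed by -0.16 and -0.09 (adjusted p = 0.584 and 0.659). The difference between arms was 0.58 for vkg (SE 0.19, limma unadjusted p = 0.0191) and 0.52 for Col4a1 (SE 0.13, unadjusted p = 0.00475). It was called for neither (adjusted p = 0.988). No other marker of the 8 had an unadjusted p under 0.05 there, beside 4.9% of all genes. The summed log2 value of all 8 markers ranged from 0.31 to 0.72 in the mock samples, from -2.16 to -1.13 in scrambled c-di-GMP and from -0.96 to -0.87 in DmSTING c-di-GMP. Of markers of other cell types, 2 of 3 lamellocyte genes fell and 1 of 2 neuron genes rose on average over the dsRNAs, beside the same shares. In that comparison 0 of 2 crystal cell genes and 0 of 1 muscle genes passed. With scrambled dsRNA only the 2 lamellocyte genes were called, beside 12.1% of all genes. With DmSTING dsRNA none of these markers was called, beside 7.45% of all genes. Whether this bears on the changes of Dcp-1, Debcl and p53 was not tested.

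The genes whose pattern over the 8 samples was most like that of Dcp-1 were l(2)SH0834 (Pearson correlation 0.99), CG11882 (0.99) and Ipk2 (0.988), and 539 genes had a correlation over 0.9. For Dronc they were Kcmf1 (0.962), Atg13 (0.946) and Tsp66E (0.944), with 17 genes over 0.9. These are descriptions over samples that share their arrays and treatments.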

How the data were processed

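The authors deposited centred log2 values of 16718 probe sets on 8 Affymetrix arrays, and the biotin labelling used a 3' IVT kit, per the labels. Medians of single probe sets over the arrays lay within 1e-06 of 0. Probe summarization, scaling between arrays, filters and the base of the logarithm were not found in the sources used here; base 2 was assumed. Array number limits the precision.

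The platform annotation gave 12339 probe sets 1 gene, 367 several and 3888 none, and 124 were controls. Looking up Entrez IDs in RefSeq's gene table updated 0 symbols and left 67 IDs unmatched. Probe sets were averaged per gene.

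All 11010 genes were fitted with limma 3.58.1 (R 4.3.3, lmFit and eBayes) on 4 group means over the 8 samples, with 7 contrasts and Benjamini-Hochberg adjustment over all genes. Called means an adjusted p under 0.05. Errors are model SEs; intervals are 95%. The fit was also run on simulated data, whose outcome is not given here and is not used for any result.

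All 7 measured genes are named, and of the other lists up to 3 called per group, or the 1 of smallest p. Members and lists were chosen with earlier results of these data known.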

Additional observations from a re-analysis of the deposited data

How the results depend on the processing

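The number of the 7 genes called with scrambled dsRNA was 1 in the model as described. It was 2 (Dcp-1 and p53) with column medians set to 0, with each probe set alone (a gene counts if any of its probe sets passed) and with the probe set of largest range, and 0 in a fit of those 4 libraries alone. Leaving out 1 library gave 0 to 1. With quantile normalization p53 was called in place of Dcp-1. With DmSTING dsRNA it was 2, and 1 (p53) without the 25% of genes of smallest range, where Dcp-1 had an adjusted p = 0.0507; leaving out 1 library gave 0 to 2. Averaged over both dsRNAs 2 or 3 were called, always Dcp-1 and p53. In the other 4 comparisons no alternative called any of the 7. No called change reversed. The other outcomes were counted per gene, comparison and alternative, over the 7 genes and the other pathway genes with a call. Of these results 1091 kept both their sign and their call or lack of one, 86 lost their call, 9 gained one and 61 that were not called changed sign.

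Over all genes, calls with scrambled dsRNA went from 1331 to 142 with only the compared libraries, to 430 and 223 without scrambled mock replicates 1 and 2 and to 587 without either DmSTING mock replicate. With DmSTING dsRNA they went from 820 to 1295 with quantile normalization, to 0 without either DmSTING mock replicate and to 301 and 163 without DmSTING c-di-GMP replicates 1 and 2. The average went from 2304 to 1190 and 1163 without DmSTING mock replicates. Without DmSTING c-di-GMP replicate 2, the difference of responses went from 0 to 12, and DmSTING against scrambled dsRNA from 1 to 34 under c-di-GMP and from 1 to 12 on average.

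The replicate block (replicate numbers from the titles) called 1386 genes with scrambled dsRNA, 786 with DmSTING dsRNA and 2379 on average, and of the 7 genes 1, 2 and 2. Replicate differences correlated over genes at 0.29 between the c-di-GMP groups, at 0.11 between the mock groups and at 0.0093 to 0.057 between groups of different treatment. The titles do not say that a number marks a shared culture or day, and with 2 numbers the pairing was not established. Centred values hold no level, so signal over background could not be assessed.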

Other observations

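A replicate shift as large as that of Buffy was seen in few genes. With Buffy included, 5 genes were lower in replicate 1 than in replicate 2 by over 0.5 on the log2 scale in 3 or more groups. By as much, 0 genes were higher. Smaller shifts are left out by that size, and 25 genes had a Pearson correlation over 0.9 with Buffy over the 8 samples. The others past 0.5 were CG15255, CG15282, CG18557 and NaPi-T, listed after their values were seen. Their correlations with Buffy were 0.633, 0.333, 0.904 and 0.946. NaPi-T had log2 values of -0.44, -0.72 and -0.68 in replicate 1 of scrambled mock, scrambled c-di-GMP and DmSTING c-di-GMP, and 0.29, -0.06 and 0.16 in replicate 2. In DmSTING mock it had 0.06 and 0.2.

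Corp, a regulator of p53 in flies, was singled out after its values were seen. Its log2 change with c-di-GMP was -0.31 with scrambled dsRNA and 0.36 with DmSTING dsRNA, neither called by limma (adjusted p = 0.24 and 0.243). The difference was 0.67 (SE 0.22, unadjusted p = 0.0181, adjusted p = 0.988). Its scrambled mock replicates lay apart, at 0.26 and -0.19.

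The genes most like p53 over the 8 samples, also chosen afterwards, were CG1695 (Pearson correlation 0.987), Phb1, a mitochondrial prohibitin (0.984), and CG1662 (0.982), with 248 genes over 0.9.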
